A study of Homo sapiens with 12 samples.

Results

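A set of 10 genes around glucuronidation was followed across 2 human cancer cell lines grown flat and in gel. They are UGDH, which encodes UDP-glucose 6-dehydrogenase, the UDP-glycosyltransferase genes UGT1A1 and UGT1A6, the UGT2B genes UGT2B4, UGT2B7, UGT2B10, UGT2B11, UGT2B15 and UGT2B17, and UGT8. They are 10 of the 27968 gene symbols in each library and were taken by symbol. They were chosen by their expression in these same libraries, counts and changes with culture included, so their own levels and changes are a description and carry no p-value. Where a member is said to pass or not to pass, this places it in the fit over all genes (adjusted p at most 0.05) and is no independent evidence. RNA sequencing covered 12 libraries in 4 groups of 3. A549 comes from a lung cancer, MDA-MB-231 from a cancer of the breast, and neither received a treatment. For 2D the cells grew flat, and for 3D with Matrigel, an extract of basement membrane. Both lines received DMEM with 10% FBS in both cultures. Harvest was at roughly 80% confluence for 2D and at day 4 for 3D, so culture form and time of harvest cannot be told apart.

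Glucuronidation joins glucuronic acid to bilirubin, steroids, bile acids, fatty acids, drugs and phenols, which makes them soluble enough to be exported. UGDH oxidises UDP-glucose to UDP-glucuronate in the cytosol, transporters carry it into the endoplasmic reticulum, and UGT enzymes there transfer the sugar. Liver, gut and kidney hold most UGT enzymes. UDP-glucuronate is also a precursor of hyaluronan, heparan sulfate and chondroitin sulfate, so UGDH serves matrix synthesis as well. UGT8 belongs to the same enzyme family but transfers galactose to ceramide, which makes galactosylceramide, a lipid best known from myelin.

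The UGT genes share sequence, which limits what a count per gene can hold. UGT1A genes on chromosome 2 each have a first exon of their own and are spliced to the same later exons, so a read in the shared exons names no single gene. The junctions of 4 of them are shown, from GENCODE 29 on GRCh38, plus strand. Capitals mark the first 36 bases of the shared exon 2, which spans chr2:233767034-233767165, and lower case the last 36 coding bases of each first exon.
UGT1A1: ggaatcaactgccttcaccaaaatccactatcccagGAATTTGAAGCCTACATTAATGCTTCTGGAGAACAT
UGT1A6: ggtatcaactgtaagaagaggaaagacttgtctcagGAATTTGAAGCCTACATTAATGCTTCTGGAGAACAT
UGT1A7: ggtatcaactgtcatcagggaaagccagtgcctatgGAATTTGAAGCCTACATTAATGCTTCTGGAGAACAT
UGT1A9: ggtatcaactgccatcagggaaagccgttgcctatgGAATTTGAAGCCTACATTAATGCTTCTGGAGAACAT
The 738 coding bases after the first exon were 1 identical sequence in all 9 UGT1A genes. Of all 50-base windows of the UGT1A1 transcript, 61.4% also occurred in another UGT transcript, and for UGT1A6 the share was 59.1%. The deposited counts of both genes held decimals in every library with a count, as arise when reads are divided between genes. On GRCh38, UGT1A1 spans chr2:233760248-233773299 and UGT1A6 chr2:233692866-233773300, and on chromosome 4 UGDH spans chr4:39498755-39527618 and UGT8 chr4:114598455-114678224.

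The UGT2B genes on chromosome 4 are separate but close copies. UGT2B15 and UGT2B17, both known for glucuronidating androgens, were the closest pair among the members, with 55 differing bases in 1593 coding bases (96.5% identity) and identical runs of up to 199 bases. Coding bases 266 to 385 hold 15 of the differences, the most of any 120-base stretch, and are shown with the differing bases in capitals.
UGT2B15: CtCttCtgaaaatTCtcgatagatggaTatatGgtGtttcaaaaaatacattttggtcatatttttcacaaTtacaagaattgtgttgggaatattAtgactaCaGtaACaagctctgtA
UGT2B17: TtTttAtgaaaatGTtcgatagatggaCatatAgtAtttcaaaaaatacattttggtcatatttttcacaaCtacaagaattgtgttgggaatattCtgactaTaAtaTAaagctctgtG
Of 50-base windows, 27.5% of UGT2B15 and 27.8% of UGT2B17 occurred in another UGT transcript. The share was 24.8% for UGT2B11, 17.6% for UGT2B10, 6.58% for UGT2B7, 1.85% for UGT2B4, and 0% for UGDH and UGT8. UGDH, UGT8, UGT2B4 and UGT2B7 had whole counts in all 12 libraries. The values of UGT1A1, UGT1A6, UGT2B10, UGT2B11, UGT2B15 and UGT2B17 are estimates that the authors' counting could have split differently.

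Levels between groups are given as CPM, the counts scaled to a common library size, after TMM scaling, and levels between genes within a group as TPM, which is per transcript length. The libraries held 5609327 to 28171901 expected counts, both ends in A549 3D, the group with the widest spread (biological coefficient of variation 0.170, against 0.0357 to 0.0540 in the others). Libraries from 3D had shorter fragments in both lines, 134 to 141 bases against 176 to 187 in A549 and 181 to 188 against 208 to 217 in MDA-MB-231. Ribosomal RNA took 3.53% to 16.5% of counts in A549 3D and at most 6.50% elsewhere. These differences lie along the same axis as culture, and their part in the results below was not tested. Structural and small RNA genes held 32.7% to 34.7% of TPM in A549 2D and 43.6% to 53.0% in A549 3D, which lowers the TPM of every other gene there. In MDA-MB-231 they held 1.19% to 1.21% in 2D and 3.40% to 4.83% in 3D. Comparisons of TPM between the lines, and of the lines' changes, are affected too. In bulk RNA, fewer cells expressing a gene and less RNA per cell cannot be told apart.

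UGDH was the most abundant of the members by far and differed more between the lines than between the cultures. Its CPM was 851, 811 and 820.2 in the A549 2D libraries and 1076, 1149.7 and 905 in A549 3D. In MDA-MB-231 it was 51.7, 49.5 and 54.6 in 2D and 46.8, 45.7 and 48.2 in 3D. Every A549 library lay far above every MDA-MB-231 library, by 3.99 ± 0.0955 (log2 difference ± SE, as throughout) in 2D and 4.47 ± 0.0984 in 3D. On CPM the SE was derived from the log2 difference and the F statistic of its test. It is therefore approximate, above all for differences near 0. SEs given for other methods or for TPM come from those fits. Within A549 the 3 libraries in 3D lay above the 3 in 2D by CPM, by 0.33 ± 0.0840, but on deposited TPM, 358, 341 and 362 in 2D and 309.8, 316 and 279.7 in 3D, the order was the opposite, by -0.23 on the log2(TPM + 1) scale. With structural and small RNA genes removed and TPM rescaled, an alternative chosen after seeing the data, the difference was 0.17 ± 0.0964 and did not pass the test. The direction of UGDH in A549 therefore rests on the scaling. On log2(TPM + 1) the median over all genes tested was itself -0.38, so UGDH lay above it on both scales.

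In MDA-MB-231 the 3 libraries in 3D lay below the 3 in 2D, with a difference of -0.15 ± 0.0891 that did not pass the test on CPM. On log2(TPM + 1) the difference was -0.55 ± 0.0716 and passed. The 3D change in A549 minus that in MDA-MB-231 was 0.48 ± 0.12 by CPM. Its range was 0.40 to 0.57 when single libraries were left out. The plot of UGDH on 3 scales shows the 2 lines keeping their order while the order of the A549 cultures turns.

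**Figure D1:**
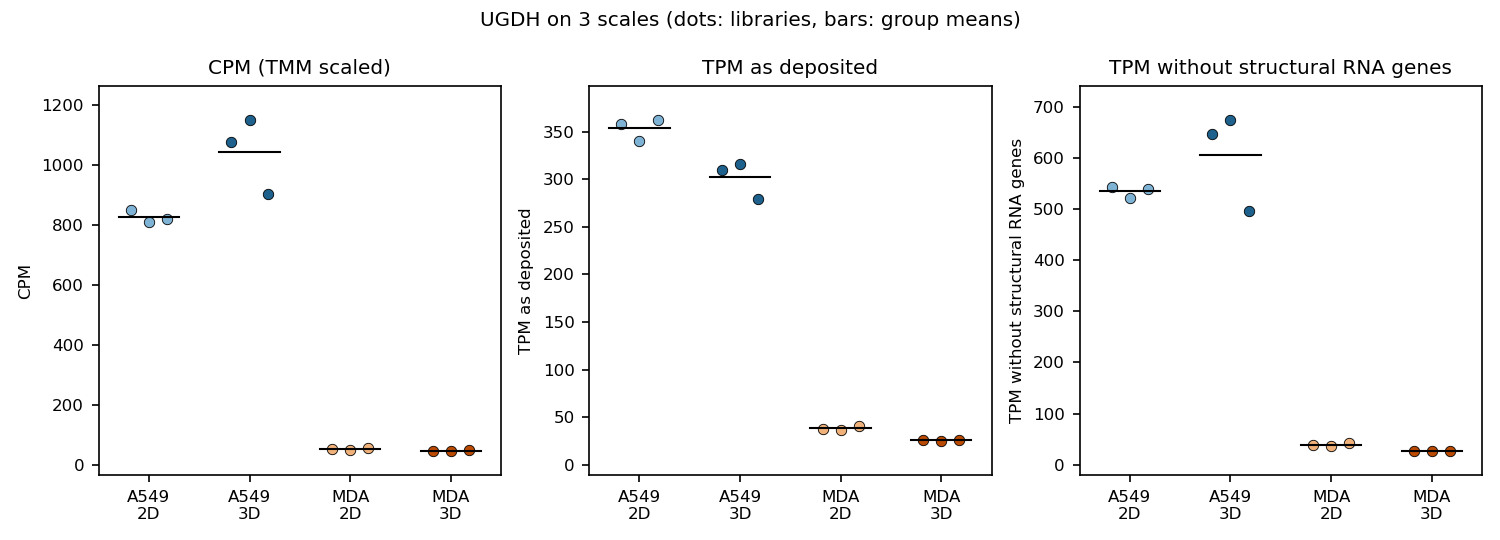
UGDH in each of the 12 libraries (dots) with group means (bars), as TMM-scaled CPM, as deposited TPM and as TPM after removal of structural RNA genes, on linear axes that include 0. The A549 3D libraries lie above A549 2D on the CPM axis (905 to 1149.7 against 811 to 851) and below them on the TPM axis (279.7 to 316.5 against 341 to 362), and MDA-MB-231 lies far below A549 on all 3.

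The UGT1A genes were read in A549 and at 0 counts in all 6 MDA-MB-231 libraries. UGT1A1 encodes the main bilirubin glucuronosyltransferase, and UGT1A6 an enzyme for small planar phenols. UGT1A1 stood at 0.111, 0 and 1.18 CPM in 2D and 3.64, 3.91 and 8.72 in 3D cultures of A549, and UGT1A6 at 1.88, 2.34 and 1.24 in 2D and 6.64, 3.71 and 10.8 in 3D. For both genes the lowest 3D library was above the highest 2D library. The differences were 3.79 ± 0.69 for UGT1A1 and 2.07 ± 0.35 for UGT1A6. Of the 23.5 counts of UGT1A1 in A549 2D, 21.4 were in replicate 3, and without that library the difference was 6.57, against 3.13 to 3.98 without any other. A total of 3 counts over a group, the floor used for a group at 0, corresponds to 0.0436 CPM in MDA-MB-231 2D and 0.0617 in 3D. Against that floor UGT1A1 was at least 114-fold higher in A549 than in MDA-MB-231 in 3D, but 60.6-fold without replicate 3 of A549 3D, a step added after seeing the data, and UGT1A6 at least 145-fold, but 89.0-fold without it. In 2D UGT1A6 was at least 42.0-fold higher. For UGT1A1 in 2D the bound of 9.66-fold rests on replicate 3 of A549, without which 2 counts remain, under the floor, and no fold can be given.

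Summing the 9 UGT1A genes avoids the division of shared reads. The sum was 14.1, 16.6 and 17.3 CPM in 2D and 33.7, 39.3 and 51.6 in 3D cultures of A549, with no overlap, and 0 in MDA-MB-231. It was higher in 3D by 1.40 ± 0.15, less than either member alone. UGT1A9 and UGT1A7, which are no members, took most of the sum in 2D: 60.3% ± 4.52 (SD, n = 3) for UGT1A9 and 23.7% ± 4.51 for UGT1A7, against 11.6% ± 3.86 for UGT1A6 and 2.59% ± 3.78 for UGT1A1. In 3D the share of UGT1A9 was 38.9% ± 5.13, of UGT1A7 24.0% ± 5.64, of UGT1A6 16.6% ± 6.41 and of UGT1A1 12.5% ± 3.84. The shares of UGT1A9 and UGT1A1 did not overlap between the cultures, while those of UGT1A6 and UGT1A7 did. Unlike the sum, the shares depend on how shared reads were divided.

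**Figure D2:**
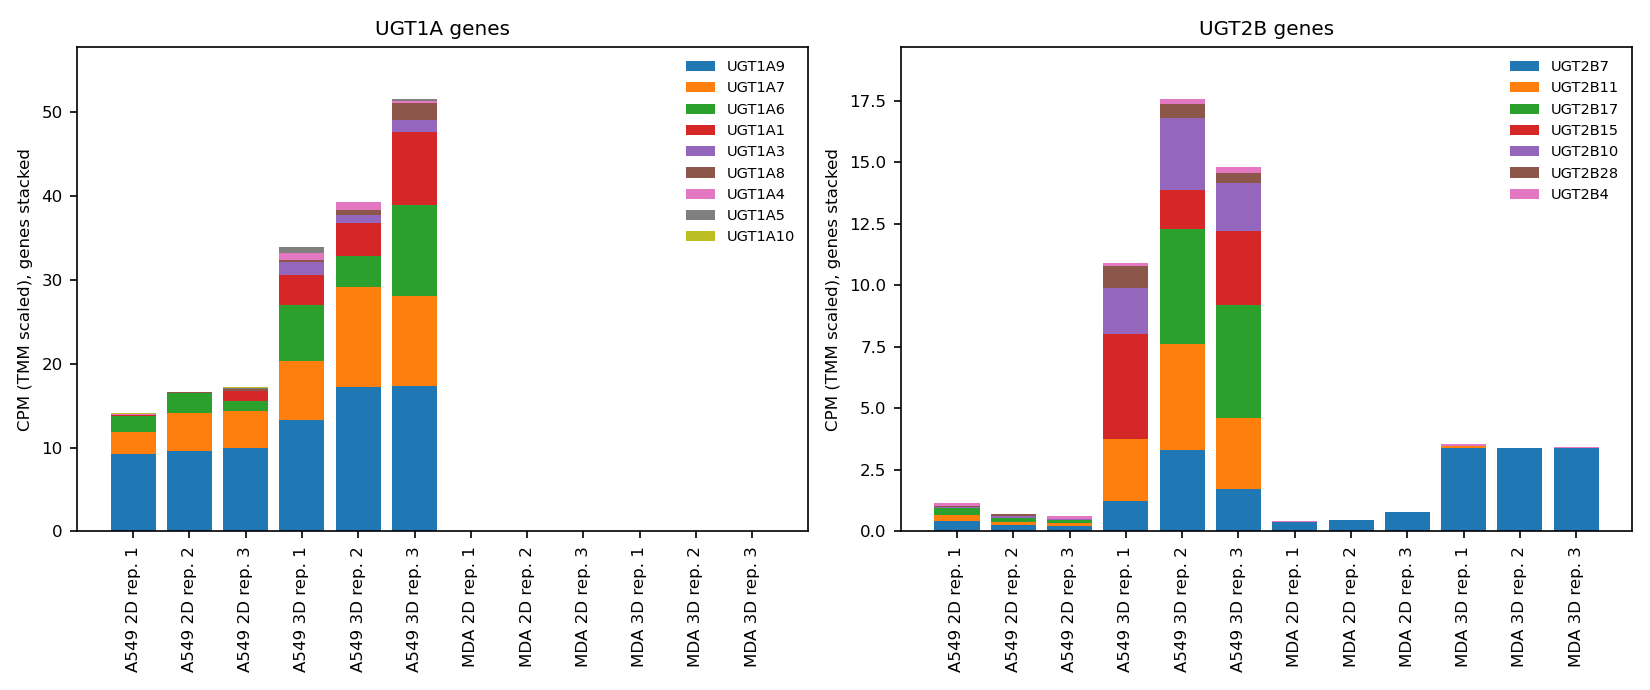
Stacked TMM-scaled CPM of the UGT1A genes (left) and the UGT2B genes (right) in each of the 12 libraries, 1 colour per gene. The UGT1A stack reaches 14.1 to 17.3 CPM in A549 2D and 33.7 to 51.6 in A549 3D and is empty in MDA-MB-231, where the UGT2B stack is nearly all UGT2B7.

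The UGT2B members were scarce in 2D in both lines and higher in 3D, in A549 through several genes and in MDA-MB-231 through UGT2B7. UGT2B7 glucuronidates morphine, bile acids and steroids. It stood at 0.442, 0.266 and 0.225 CPM in 2D and 1.25, 3.32 and 1.74 in 3D cultures of A549, and at 0.380, 0.452 and 0.781 in 2D and 3.38, 3.41 and 3.40 in 3D cultures of MDA-MB-231. In both lines the 3D libraries lay above all 2D libraries, by 2.60 ± 0.41 in A549 and 2.64 ± 0.31 in MDA-MB-231. The difference between these changes was -0.05 ± 0.74, an approximate SE, and did not pass the test. With single libraries left out its range was -0.41 to 0.28, so a difference of either sign remains possible. On log2(TPM + 1) that difference was -0.72 ± 0.21 and passed, the only 1 of 21 alternative settings in which it did.

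UGT2B10, an enzyme for nicotine and tertiary amines, stood at 0.0553, 0.106 and 0.0562 CPM in A549 2D and 1.88, 2.93 and 1.93 in 3D, a difference of 4.74 ± 0.46. UGT2B11, the closest relative of UGT2B10 among the members (94.8% coding identity), stood at 0.221, 0.106 and 0.112 in 2D and 2.51, 4.30 and 2.88 in 3D, a difference of 4.34 ± 0.43. The libraries of the cultures did not overlap for either gene, but the A549 2D levels rest on 4 counts of UGT2B10 and 8 of UGT2B11 over 3 libraries. In MDA-MB-231 UGT2B10 had 0 counts and UGT2B11 had 1. Over pooled counts UGT2B10 was 28.1-fold higher in A549 3D than in 2D (exact 95% counting interval 10.5 to 106) and UGT2B11 20.4-fold (10.0 to 48.5). UGT2B4, which glucuronidates bile acids, had 4 counts over the A549 2D libraries, 9 in A549 3D, 1 in 2D and 2 in 3D cultures of MDA-MB-231. It did not pass the filter on low counts.

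UGT2B15 had 0 counts in 2D and 34, 7.92 and 76.9 in 3D cultures of A549, whereas UGT2B17 had 5, 3 and 2 in 2D and 0, 24.1 and 116 in 3D. Neither had a count in MDA-MB-231. In replicate 1 of A549 3D all counts of the pair stood under UGT2B15, and in replicates 2 and 3 UGT2B17 had more. UGT2B17 did not pass the filter on low counts. Summed, a step added after seeing the data, the pair stood at 0.276, 0.159 and 0.112 CPM in 2D and 4.26, 6.25 and 7.61 in 3D, a difference of 5.03 ± 0.38. Over pooled counts UGT2B15 alone was at least 56.4-fold higher in 3D, UGT2B17 alone 19.9-fold (10.5 to 42.4) and the pair 36.8-fold (19.7 to 77.7). Without replicate 3 of A549 3D the fold of UGT2B17 was 10.0. The level of the pair does not depend on how reads common to both genes were divided.

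**Figure D3:**
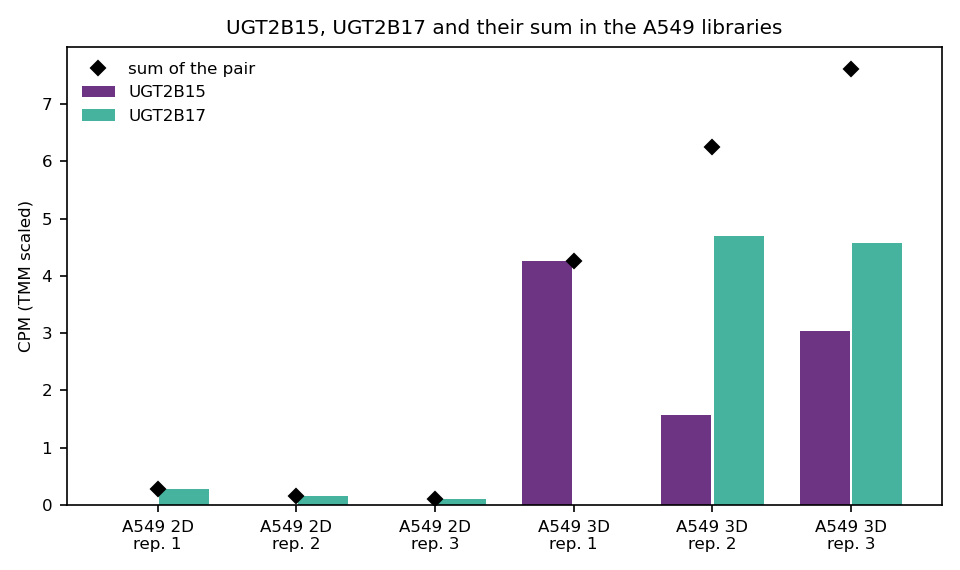
TMM-scaled CPM of UGT2B15 and UGT2B17 (bars) and of their sum (diamonds) in the 6 A549 libraries. The sum lies at 0.112 to 0.276 in 2D and 4.26 to 7.61 in 3D, while the part given to each gene differs between the 3D replicates.

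The sum of the 7 UGT2B genes was 1.16, 0.691 and 0.618 CPM in 2D and 10.9, 17.6 and 14.8 in 3D cultures of A549, a difference of 4.11 ± 0.24. In MDA-MB-231 it was 0.422, 0.452 and 0.781 in 2D and 3.55, 3.41 and 3.45 in 3D, a difference of 2.63 ± 0.28. The change in A549 minus that in MDA-MB-231 was 1.47 ± 0.42, and 1.14 ± 0.47 without replicate 3 of MDA-MB-231 2D, below the threshold of the fit. As 6 of the 7 genes are members, this is a description too. UGT2B7 made up 37.6% ± 1.1 (SD, n = 3) of the sum in 2D and 14.0% ± 4.21 in 3D cultures of A549, against 96.7% ± 5.77 and 97.8% ± 2.55 in MDA-MB-231.

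The mean transcript length that the files give for UGT2B7, weighted by its isoforms, was 1668 to 1888 bases in both A549 cultures, 1598 to 1607 in 2D and 1591 to 1603 in 3D cultures of MDA-MB-231. The lines did not overlap in either culture. For UGT1A6 it was 2484 bases in all 3 A549 2D libraries and 2267 to 2428 in A549 3D. A two-sided exact permutation test of 3 against 3 libraries cannot give a p below 0.1, so it cannot decide and these lengths are described only. With 4 to 65 counts per library for UGT2B7, the division between isoforms is coarse.

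Promoter sequence was at hand for 8 of the 10 members (RefSeq, GRCh38.p14, 250 bases before to 50 after the gene start), without UGT2B4 and UGT2B17. The 3 UGT2B members whose counts were nearly all in A549 3D and that have an entry held 1 common run of 18 bases, at 55 or 56 bases before the start. It is given in capitals in the 60 bases around it.
UGT2B10, chr4:68815919-68815978, plus strand: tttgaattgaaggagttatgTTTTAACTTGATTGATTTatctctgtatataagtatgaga
UGT2B11, chr4:69214764-69214823, minus strand: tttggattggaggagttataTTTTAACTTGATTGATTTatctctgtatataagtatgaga
UGT2B15, chr4:68670669-68670728, minus strand: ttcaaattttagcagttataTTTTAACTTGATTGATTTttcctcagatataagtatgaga
The run was defined as common to these 3 close copies, so its presence in them is no finding, and on either strand it was in 3 of all 35116 promoters. UGT2B10 and UGT2B11 were identical over a stretch of 55 bases that starts with it. The longest run shared with UGT2B7 as well was 12 bases, TAAACATAAAAG, 175 to 182 bases before the start.

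Of the motifs searched on both strands of the 300-base windows, 3 are given. TGACNNNGC, the core of the antioxidant response element bound by NRF2, was found in UGT2B10 and UGT2B11 and in 13.3% of all promoters. GCGTG, the core bound by AHR with ARNT, was found in UGT1A6, UGT8 and UGDH and in 36.5% of all promoters. TATAAA was in UGT1A1, UGT2B10 and UGT2B11 and in 11.5% of all. These are matches of letters in a short window and say nothing of binding.

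UGT8 had the opposite pattern between the lines. It stood at 25.0, 20.4 and 23.9 CPM in 2D and 14.8, 15.3 and 14.0 in 3D cultures of MDA-MB-231, against 0.387, 0.0532 and 0.225 in 2D and 0.501, 0.586 and 0.276 in 3D cultures of A549. Every MDA-MB-231 library was above every A549 library. A549 minus MDA-MB-231 was -6.67 ± 0.23 in 2D and -5.30 ± 0.26 in 3D. In MDA-MB-231 the 3D libraries were below all 2D libraries, by -0.65 ± 0.12. In A549, with 12 counts in 2D and 14 in 3D, the cultures overlapped and the difference was 0.72 ± 0.56, which did not pass. The difference between the changes was 1.38 ± 0.59 and did not pass, but it passed with DESeq2 (1.40 ± 0.60), on log2(TPM + 1) (0.99 ± 0.12), and when replicate 1 of A549 2D (2.03), replicate 3 of A549 3D (1.91) or replicate 2 of MDA-MB-231 2D (1.46) was left out.

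**Figure D4:**
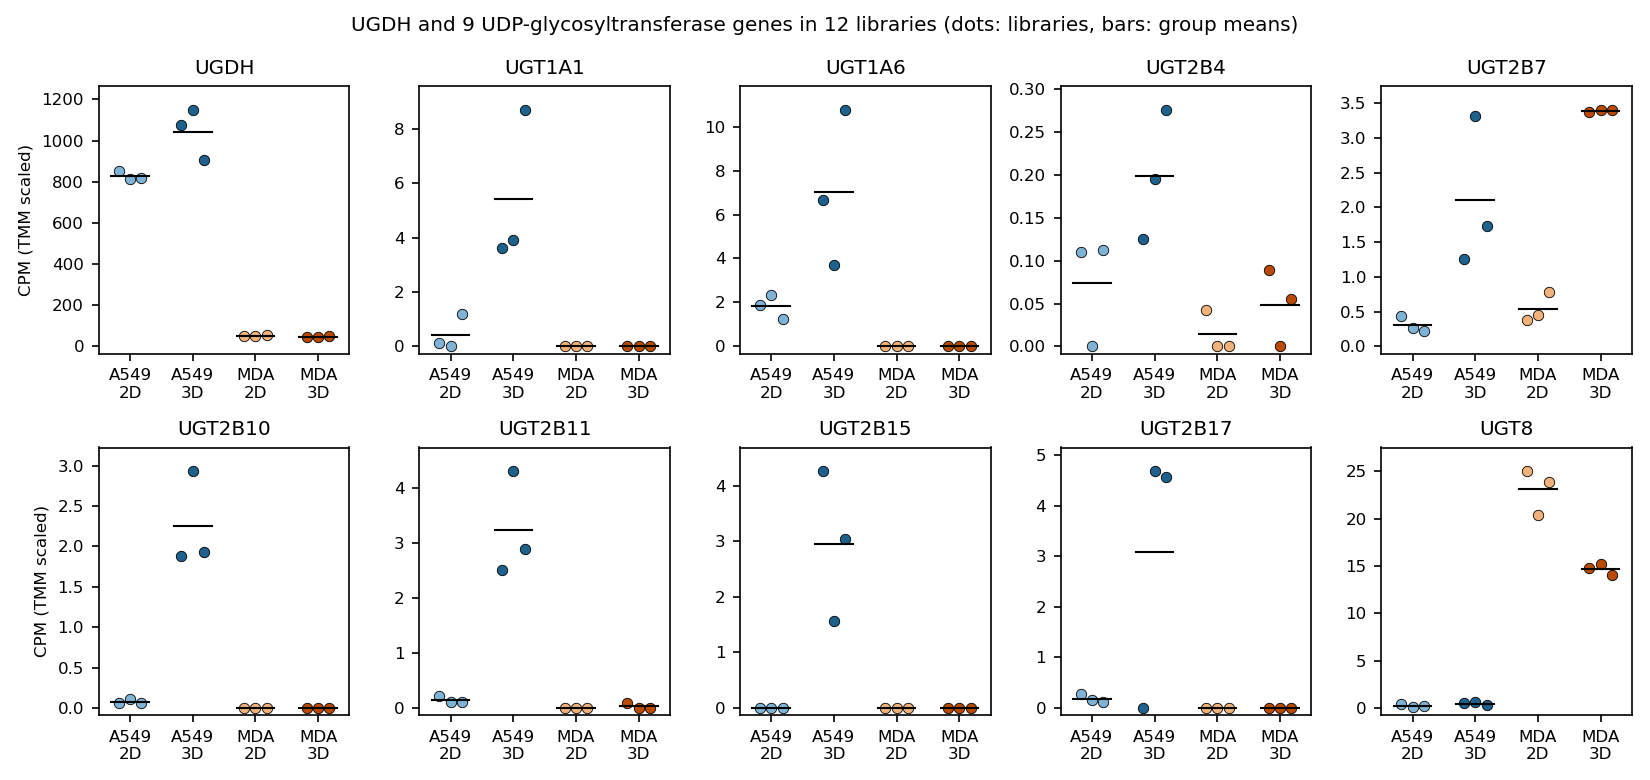
TMM-scaled CPM of each member in the 12 libraries (dots; bars are means of 3 libraries), 1 panel per gene, each with its own linear axis. UGDH, whose order between the A549 cultures turns on the TPM scale, is at or above 811 CPM in A549 and below 55 in MDA-MB-231, UGT8 is the reverse at a lower level, and the UGT1A and UGT2B panels lie at or below 2.34 CPM in A549 2D and at 1.25 to 10.8 CPM in A549 3D, except UGT2B4 and 1 library of UGT2B17.

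Counted over the members, 7 of 10 passed the test upward in A549 3D against 2D (UGDH, on CPM only, UGT1A1, UGT1A6, UGT2B7, UGT2B10, UGT2B11 and UGT2B15), 0 downward, UGT8 did not pass, and 2 were not tested. With DESeq2, UGT1A1 (3.67 ± 2.21, against 3.79 ± 0.69 with edgeR, SEs of different kinds) and UGT2B15, at 0 counts in 2D, did not pass. UGT2B15 had 0 counts outside A549 3D and entered the fit only through that group. Of all 15304 genes tested, 65.6% passed in this comparison, 34.1% upward and 31.5% downward. In MDA-MB-231, 1 passed upward (UGT2B7) and 1 downward (UGT8), against 67.6% of all genes, 33.4% upward and 34.2% downward. Of the 4 members with an estimate for it, 1 passed for the difference between the changes (UGDH), against 56.1% of all genes, 29.3% toward A549 and 26.7% toward MDA-MB-231. Between the lines in 2D, 5 passed as higher in A549 and 1 as higher in MDA-MB-231, against 81.6% of all genes, 42.8% and 38.8% in these directions. Of these, UGT1A1 did not pass without replicate 3 of A549 2D, nor UGT2B10 without replicate 2 of A549 2D. In 3D the numbers were 6 and 2, against 83%, 43.9% and 39.2%. The members were chosen with these changes known, so nothing is read from the counts. UGT2B7 was higher in MDA-MB-231 3D than in A549 3D by -0.82 ± 0.30 (A549 minus MDA-MB-231), and did not pass without replicate 1 (-0.69) or replicate 3 (-0.68) of A549 3D.

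Per transcript length, and with only the members placed in order, UGDH led in every group. It stood at 354 ± 11.5 TPM (mean ± SD, n = 3) in A549 2D, and was lowest in MDA-MB-231 3D, at 26.0 ± 0.594. In A549 3D it was followed by UGT1A6 (2.94 ± 1.71), UGT1A1 (2.20 ± 1.31), UGT2B11 (1.66 ± 0.410), UGT2B17 (1.43 ± 1.24), UGT2B15 (1.24 ± 0.587), UGT2B7 (1.09 ± 0.458) and UGT2B10 (0.810 ± 0.154). From UGT1A6 to UGT2B10 each neighbour in this order overlapped the next. UGT8 and UGT2B4 were the lowest members, at 0.103 ± 0.0306 and 0.0933 ± 0.0351. UGT1A9 and UGT1A7, which are no members, had mean TPM of 6.32 and 4.01 in A549 3D, above UGT1A6. In MDA-MB-231 2D the order was UGDH, UGT8 (13.0 ± 1.37), UGT2B7 (0.853 ± 0.348) and UGT2B4 (0.0167 ± 0.0289), with no overlap between neighbours. In MDA-MB-231 3D UGT8 (6.19 ± 0.343) and UGT2B7 (4.01 ± 0.0666) lay closer together, still without overlap.

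Of the 13 other UDP-glycosyltransferase genes listed, 3 passed the filter, all of the UGT1A cluster, and all 3 were higher in A549 3D by CPM. UGT1A9, an enzyme for bulky phenols such as propofol, stood at 9.23, 9.62 and 9.95 CPM in A549 2D and 13.3, 17.2 and 17.3 in 3D and rose by 0.74 ± 0.13 (adjusted p = 0.000471). UGT1A7 stood at 2.65, 4.52 and 4.38 in 2D and 7.02, 11.9 and 10.8 in 3D and rose by 1.36 ± 0.25 (adjusted p = 0.000435). UGT1A3 had 0 counts in 2D and 12, 5.10 and 38.2 in 3D, at least 26.1-fold higher. It passed the filter only through A549 3D, so its rise there is a description and no p-value is given. On log2(TPM + 1) UGT1A7 passed, but UGT1A9 did not, at 0.13. The TPM of UGT1A9 overlapped between the cultures, at 5.32, 5.53 and 6.03 in 2D and 5.2, 6.46 and 7.30 in 3D. All 3 had 0 counts in MDA-MB-231. Their counts also held decimals in every library with a count, so these values and p-values depend on how shared UGT1A reads were divided. These p-values measure the spread between libraries, which may be technical, since the labels do not say whether replicates were separate cultures.

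The remaining 10 listed genes were too low to test. Over the A549 libraries UGT1A8 had 7.18 counts in 2D and 55.9 in 3D, UGT1A4 2.12 and 19.9, UGT1A5 2.39 and 10.2 and UGT1A10 4.45 and 0. UGT2B28, an androgen-conjugating enzyme close to UGT2B11 (97.0% coding identity), had 2 and 20.2, and UGT2A3 15 and 41. None of these 6 had a count in MDA-MB-231. UGT2A1 had 4 counts in MDA-MB-231 2D and 1 in A549 3D, UGT2A2 had 2 in MDA-MB-231 2D, and UGT3A1 and UGT3A2 had 1 each in MDA-MB-231 3D.

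Each pathway list is set beside all genes tested, of which 34.1% rose and 31.5% fell in A549 3D by CPM and 15% and 56.4% on log2(TPM + 1). In MDA-MB-231 3D the shares were 33.4% and 34.2% by CPM and 16.5% and 48.9% on log2(TPM + 1).

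Genes listed for UDP-glucuronate supply mostly rose in A549 3D by CPM, but fewer passed on TPM. They are enzymes upstream of UGDH and the transporter genes SLC35B1, SLC35D1 and SLC35D2, which are not upstream of it. Of 9 listed genes, all tested, 8 rose and 1 fell (median 0.74, against 0.03 over all genes), whereas on log2(TPM + 1) 4 rose and 1 fell. HK1, a hexokinase, stood at 76.1 ± 1.71 CPM in 2D (mean ± SD, n = 3) and 327 ± 21.9 in 3D, and rose by 2.11 ± 0.0775 (adjusted p = 4.79e-12). HK2 rose by 2.72 ± 0.30 (adjusted p = 1.24e-06), GPI, the glucose-phosphate isomerase, by 0.96 ± 0.0718 (adjusted p = 1.45e-08), and UGP2, which makes UDP-glucose, by 0.74 ± 0.0923 (adjusted p = 4.04e-06), though UGP2 did not pass on log2(TPM + 1), at 0.16. In MDA-MB-231 5 rose and 3 fell (median 0.30, against 0 over all genes), and on log2(TPM + 1) 4 rose and 3 fell. The phosphoglucomutase PGM1 rose by 1.39 ± 0.0761 (adjusted p = 9.48e-10). The transporter gene SLC35B1 rose by 1.17 ± 0.0765 (adjusted p = 5.05e-09). SLC35D1 went the other way, at -0.69 on CPM and -0.97 on log2(TPM + 1), and passed on both. SLC35D2 passed upward on CPM, at 0.30, but not on log2(TPM + 1), at -0.13. UGP2 fell by 0.23 ± 0.0914 (adjusted p = 0.0341) on the log2 scale.

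Genes of matrix polysaccharide synthesis, listed as consumers of UDP-glucuronate, mostly fell in A549. Not all of their enzymes draw on UDP-glucuronate themselves: the list also holds the epimerases DSE and GLCE and XYLT and EXTL genes. The counts therefore do not measure the use of UDP-glucuronate. Of 19 listed genes 16 were tested, and 2 rose and 9 fell in A549 3D (median -0.55), and on log2(TPM + 1) 1 rose and 13 fell. The hyaluronan synthase HAS2 stood at 11.5 ± 1.08 CPM in 2D and 1.93 ± 0.816 in 3D and fell by 2.52 ± 0.18 (adjusted p = 8.55e-09) on the log2 scale. The dermatan sulfate epimerase DSE fell by 2.22 ± 0.0984 (adjusted p = 3.99e-11) and the chondroitin synthase CHSY1 by 1.11 ± 0.0902 (adjusted p = 3.53e-08), while the chondroitin polymerising factor CHPF rose by 2.25 ± 0.17 (adjusted p = 1.85e-08). In MDA-MB-231 7 rose and 5 fell (median 0.05), but on log2(TPM + 1) 3 rose and 8 fell. There the glucuronyltransferase B3GAT3 rose by 1.52 ± 0.11 (adjusted p = 1.41e-08), and EXTL2 fell by 1.05 ± 0.0976 (adjusted p = 1.72e-07) and the heparan sulfate epimerase GLCE by 1.06 ± 0.10 (adjusted p = 2.87e-07).

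By CPM, genes of glucuronide hydrolysis and transport rose in A549 3D. All 8 listed genes were tested and rose, against 34.1% of all genes (median 1.04), and on log2(TPM + 1) 4 rose and 0 fell. The efflux pump ABCC3 stood at 270.1 ± 5.94 CPM in A549 2D and 736 ± 118 in 3D and rose by 1.45 ± 0.0956 (adjusted p = 3.42e-09). ABCC2 rose by 1.17 ± 0.11 (adjusted p = 2.47e-07), ABCG2 by 1.72 ± 0.0758 (adjusted p = 3.79e-11) and the uptake carrier SLCO2B1 by 2.58 ± 0.25 (adjusted p = 9.28e-07). In MDA-MB-231 4 rose and 2 fell (median 0.33), and on log2(TPM + 1) 2 rose and 3 fell. ABCC3 rose by 1.71 ± 0.12 (adjusted p = 7.79e-09) from 6.98 ± 0.162 to 22.9 ± 0.512 CPM, and SLCO1B3, an uptake carrier, fell by 3.74 ± 0.21 (adjusted p = 9.73e-10) on the log2 scale.

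Of 28 receptors and transcription factors known to act on UGT genes, 24 were tested, and 15 rose and 3 fell in A549 3D (median 0.49), but on log2(TPM + 1) 7 rose and 9 fell. AHR, the aryl hydrocarbon receptor, stood at 40.2 ± 3.15 CPM in A549 2D and 203 ± 33.8 in 3D and rose by 2.33 ± 0.11 (adjusted p = 5.81e-11). PPARA rose by 2.00 ± 0.12 (adjusted p = 1.38e-09) and FOXA1 by 1.86 ± 0.11 (adjusted p = 1.58e-09), and MAFK, a small Maf partner of NRF2, fell by 2.77 ± 0.11 (adjusted p = 8.89e-12). NFE2L2, which encodes NRF2, rose by 0.54 ± 0.0840 (adjusted p = 4.22e-05) on CPM, but stood at -0.02 on log2(TPM + 1) and did not pass, and HNF4A fell by 0.41 ± 0.11 (adjusted p = 0.00489). KEAP1, the inhibitor of NRF2, did not pass, with a difference of 0.13 ± 0.0895 (adjusted p = 0.211) on CPM, and was called lower on log2(TPM + 1). NR1I2, the pregnane X receptor gene, was not tested, at up to 0.197 CPM in A549 and 0 in MDA-MB-231. In 2D, HNF4A stood at 44.9 ± 2.04 CPM in A549 against 0.0575 ± 0.0664 in MDA-MB-231, and the latter is a level of very few counts.

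In MDA-MB-231 9 of these 24 rose and 5 fell (median 0.04), but on log2(TPM + 1) 3 rose and 9 fell. FOXA1 fell from 3.08 ± 0.500 to 0.0532 ± 0.0524 CPM (adjusted p = 9.38e-09), a level of very few counts. On the log2 scale NFE2L2 fell by 0.56 ± 0.0824 (adjusted p = 1.79e-05), whereas AHR rose by 0.71 ± 0.0999 (adjusted p = 1.19e-05), CEBPB by 1.36 ± 0.0968 (adjusted p = 1.12e-08) and KEAP1 by 0.54 ± 0.0882 (adjusted p = 5.57e-05), though on log2(TPM + 1) KEAP1 did not pass, at 0.12. HNF4A did not pass, at 0.0575 ± 0.0664 CPM in 2D and 0 in 3D.

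Target enzymes of NRF2, a factor also known to raise UGDH and several UGT genes, were higher in A549 than in MDA-MB-231 for all 16 of 16 listed genes in both cultures, with medians of 2.76 in 2D and 2.48 in 3D, against 0.07 and 0.10 over all genes. Of all genes 42.8% were higher in A549 in 2D and 43.9% in 3D, and on log2(TPM + 1) 15 of the 16 passed in each, against 20.8% and 23.2% of all genes. With culture, 11 rose and 4 fell in A549 (6 and 6 on log2(TPM + 1)), and 12 and 3 in MDA-MB-231 (8 and 5). In A549 EPHX1, an epoxide hydrolase, rose by 3.68 ± 0.15 (adjusted p = 2.2e-11), TALDO1 by 1.33 ± 0.0866 (adjusted p = 2.89e-09), PGD by 1.02 ± 0.0800 (adjusted p = 2.32e-08) and ME1 by 1.29 ± 0.10 (adjusted p = 2.8e-08). HMOX1, heme oxygenase 1, fell in A549 by 1.60 ± 0.13 (adjusted p = 4.86e-08) on the log2 scale and rose in MDA-MB-231 by 2.44 ± 0.17 (adjusted p = 9.64e-09). TKT rose by 1.01 ± 0.0874 (adjusted p = 8.3e-08) in MDA-MB-231.

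Target genes of AHR did not move as 1 group. Of 7 listed, 6 were tested, with 3 risen and 2 fallen in A549 3D (1 and 3 on log2(TPM + 1)) and 4 and 1 in MDA-MB-231 3D (3 and 1). CYP1A1, the classic target, stood at 2.80 ± 0.525 CPM in A549 2D and 1.35 ± 0.706 in 3D and fell by 0.75 ± 0.26 (adjusted p = 0.018), but rose in MDA-MB-231 from 8.17 ± 0.878 to 35.9 ± 0.605, by 2.13 ± 0.14 (adjusted p = 4.44e-09). ALDH3A1, an aldehyde dehydrogenase, rose in A549 by 2.96 ± 0.14 (adjusted p = 7.88e-11) and TIPARP fell by 0.94 ± 0.0731 (adjusted p = 2.23e-08). CYP1B1 rose in MDA-MB-231 by 1.43 ± 0.0751 (adjusted p = 6.81e-10).

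Sulfation is another route of conjugation. Of 11 listed sulfotransferase genes and genes of their cofactor 7 were tested, and 6 rose and 0 fell in A549 3D (median 2.98), and on log2(TPM + 1) 5 rose and 2 fell. SULT1A1 stood at 2.10 ± 0.261 CPM in A549 2D and 22.9 ± 3.8 in 3D and rose by 3.47 ± 0.19 (adjusted p = 3.07e-10), SULT1A3 by 2.98 ± 0.14 (adjusted p = 8.15e-11) and PAPSS2, which makes the sulfate donor, by 1.79 ± 0.0711 (adjusted p = 1.14e-11). SULT1C2 also rose, from 0.0542 ± 0.0532 to 1.35 ± 0.617 CPM (adjusted p = 3.48e-06), from a level of very few counts. The SULT1A genes are close copies, so the division of their counts is uncertain. In MDA-MB-231 3 rose and 1 fell (1 and 1 on log2(TPM + 1)): SULT1A1 rose by 1.69 ± 0.34 (adjusted p = 0.000341), SULT1A3 by 0.66 ± 0.20 (adjusted p = 0.00834) and PAPSS1 by 0.30 ± 0.0667 (adjusted p = 0.00086), and PAPSS2 fell by 0.54 ± 0.0698 (adjusted p = 5.35e-06). On log2(TPM + 1) SULT1A3 (0.16) and PAPSS1 (-0.12) did not pass in MDA-MB-231.

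Of 14 genes of ceramide and galactolipid metabolism around UGT8, all tested, 6 rose and 4 fell in A549 3D (median 0.08; 3 and 8 on log2(TPM + 1)). In MDA-MB-231 4 rose and 7 fell (median -0.15; 1 and 8). GAL3ST1, which sulfates the product of UGT8, stood at 5.67 ± 0.607 CPM in A549 2D and 30.8 ± 4.94 in 3D, rose by 2.47 ± 0.14 (adjusted p = 3.26e-08), and had 0 counts in MDA-MB-231, the line with the higher UGT8. FA2H, the fatty acid hydroxylase of galactolipids, rose in A549 by 2.13 ± 0.14 (adjusted p = 3.23e-09), and stood at 0.365 ± 0.0796 CPM in MDA-MB-231 2D. GALC, which degrades galactosylceramide, rose in A549 by 0.80 ± 0.0801 (adjusted p = 3.67e-07) and fell in MDA-MB-231 by 0.47 ± 0.0781 (adjusted p = 5.93e-05) on the log2 scale. CERS6 fell there by 0.81 ± 0.0792 (adjusted p = 2.89e-07) and B4GALT6 by 1.09 ± 0.12 (adjusted p = 1.42e-06), and PSAP rose by 1.09 ± 0.11 (adjusted p = 2.82e-07).

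**Figure D5:**
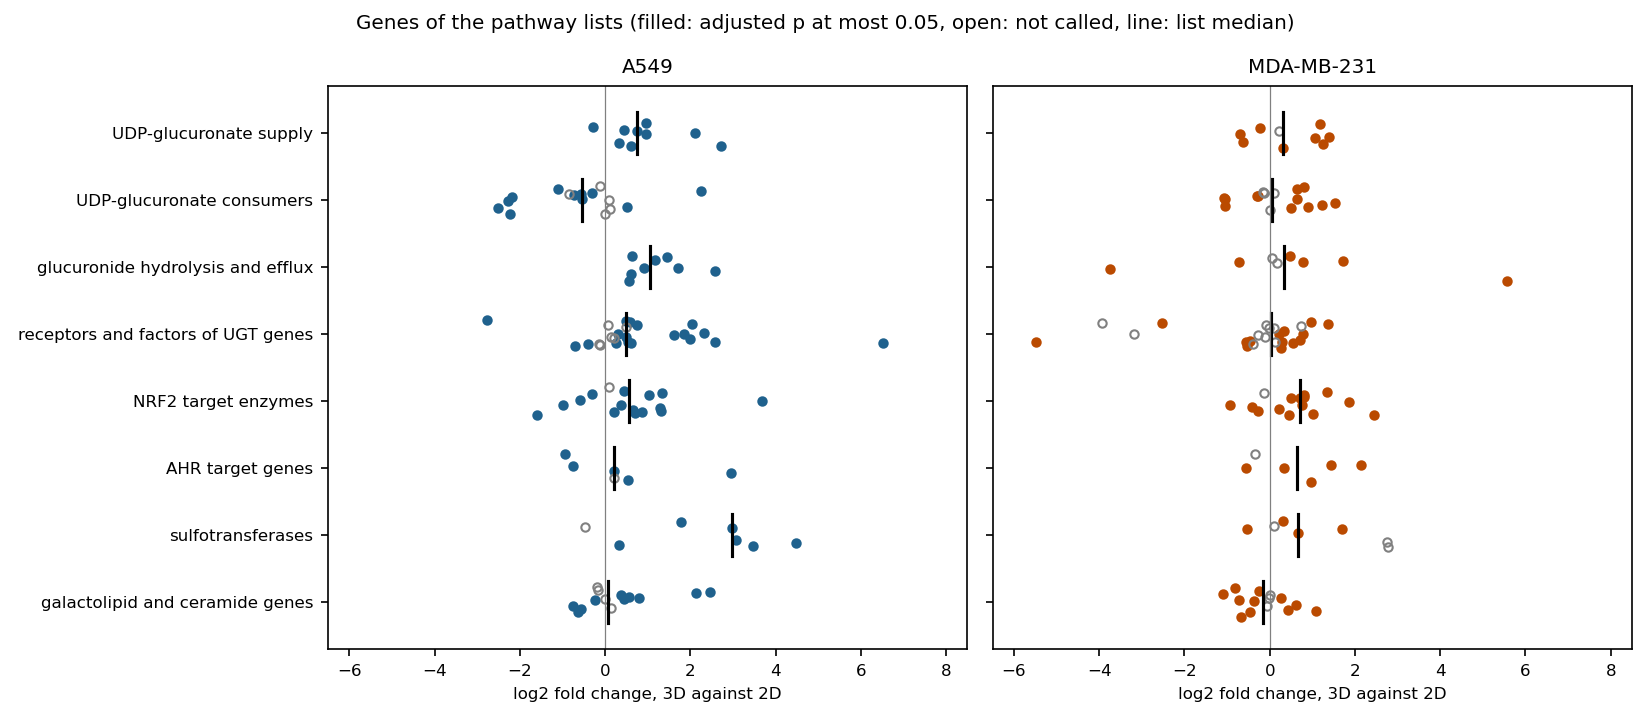
log2 fold change, 3D against 2D, of every tested gene of the 8 pathway lists in A549 (left) and MDA-MB-231 (right). Filled dots passed the test (adjusted p at most 0.05) and open dots did not. The black line is the list median, in A549 at 1.04 for hydrolysis and efflux, 2.98 for sulfotransferases and -0.55 for the list labelled UDP-glucuronate consumers.

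The lines were checked against markers. Of 10 lung epithelium markers, KRT8 and KRT18 held nearly all of the sum in A549 (3686 to 3923 CPM in 2D and 9933 to 12994 in 3D). The surfactant genes SFTPA1, SFTPB, SFTPC and SFTPD were each below 1 CPM on average in both A549 cultures, as was NKX2-1, so the defining markers of alveolar cells were at or near 0. In MDA-MB-231 the sum was 628 to 653 CPM in 2D and 942 to 1007 in 3D. NKX2-1 and AQP5 went against the line labels in 2D, at 0 CPM in A549 and 0.886 ± 0.0619 and 1.18 ± 0.117 in MDA-MB-231. Of 10 breast markers CD44 and VIM led in MDA-MB-231 (sum 4038 to 4082 CPM in 2D and 5582 to 6047 in 3D), and ESR1 and PGR were near 0. In A549 the sum of the same list was 1437 to 1456 CPM in 2D and 1335 to 1618 in 3D. Of the 6 breast markers tested, 1 was higher and 5 were lower in A549 in 2D, and 1 and 4 in 3D. Hepatocyte markers are given because UGT genes are liver genes: their sum over 10 genes was 4.61 to 4.81 CPM in A549 2D and 22.8 to 26.8 in A549 3D. In A549 3D SERPINA1 rose from 0.0920 ± 0.0337 to 12.9 ± 1.54 CPM and ALB, the albumin gene, from 0.0365 ± 0.0316 to 2.53 ± 1.31. TTR rose to 1.65 ± 0.325 CPM and TAT to 2.09 ± 1.13, while APOB and APOC3 had 0 counts there. These markers were named after their values were seen, so their rise is a description and no p-value is given. In MDA-MB-231 the sum, 49.96 to 56.8 in 2D and 186 to 225 in 3D, was nearly all SERPINA1. Markers of leukocytes, endothelium, fibroblasts and erythroid cells summed to 4.37 to 5.0 and 15.2 to 30.7 CPM in A549 2D and 3D and to 99.5 to 114 and 230.7 to 259.7 in MDA-MB-231, chiefly CD68, with PTPRC at most 0.523 CPM on average and CD3E, DCN and HBA1 at 0. The part of these genes in the member levels was not tested.

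Genes most like 3 members were sought by the root mean square difference of mean-centred log2 CPM over the 12 libraries. For UGDH they were DNAJC22 (0.18), KRT222 (0.18) and KCNJ16 (0.18), against a median of 2.14 over all genes. KRT222 and KCNJ16 were at or near 0 in MDA-MB-231, where UGDH had means of 51.9 CPM in 2D and 46.9 in 3D. The gap of these 2 genes between the lines therefore depends on the prior count of 2 added before taking logs. For UGT1A6, of the 2 UGT1A members the one with the higher mean log2 CPM over these libraries, they were NEFL (0.33), CDH6 (0.36) and LINC01504 (0.37), against 2.58, and all 3 were at or near 0 in MDA-MB-231. For UGT2B7, the UGT2B member with the highest such mean, though not the highest in A549 3D by TPM, they were MIR210HG (0.47), IFITM10 (0.50) and S100A6 (0.50), against 1.52. S100A6 stood at a mean of 657 CPM in A549 2D, 2121 in A549 3D, 628 in 2D and 2494 in 3D cultures of MDA-MB-231, so the likeness is of pattern, not of level. All of these pairs share the same libraries, groups and depths.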

How the data were processed

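Total RNA of A549 and MDA-MB-231 cells in 2D and 3D was extracted with TRIZOL and sequenced after ribosomal depletion (TruSeq Stranded Total RNA with Ribo-Zero Gold), per the labels' protocols. The authors deposited 1 RSEM table per library with expected counts, TPM and lengths in bases for 27968 gene symbols, on hg19, per the file headers and the submitters' processing notes. For the aligner, the RSEM version, the annotation release and strandedness in counting, the entry is: not given in the sources used here. There were 0 columns of other series. RSEM splits reads shared between genes by estimate, and deposited TPM depends on the total of all other genes.

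Expected counts were rounded and filtered (filterByExpr, minimum count 10), which left 15304 genes. They were fitted in 1 model of 4 group means with edgeR's quasi-likelihood test and TMM scaling, with Benjamini-Hochberg adjustment over all genes and a threshold of 0.05. All adjusted p-values come from this fit. The deposited TPM was tested with limma on log2(TPM + 1), which understates the change of low genes. The UGT1A and UGT2B sums were fitted as single rows in place of their genes. Depth was 5609327 to 28171901 expected counts per library. Floors and 95% intervals cover counting error only. Other alternatives were RLE and upper-quartile scaling, DESeq2, no filter, a filter of CPM at least 1 in 3 libraries, a pseudocount of 0.1, a replicate block, each library left out, and each line fitted alone. The fit was tested on simulated data.

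The members and pathway lists were chosen with earlier results of these data known, so no p-value is given for a member's level or change. Genes named from each pathway list were up to 4 with the smallest p in A549 and up to 3 in MDA-MB-231, plus NFE2L2, KEAP1, AHR, HNF4A and NR1I2, and some items that the rule or the motif search took in are not reported here. The transporter genes SLC35D1 and SLC35D2 were given outside this rule, after their values were seen. All members, all other UGT genes with a count and the 3 genes most like UGDH, UGT1A6 and UGT2B7 were named as well, and marker genes were named after their values were seen. Sequences came from GENCODE 29 transcripts and RefSeq promoters, both on GRCh38, and no deposited coordinate was converted. R 4.3.3, edgeR 4.0.16, limma 3.58.1, DESeq2 1.42.0, Python 3.11.15, NumPy 2.4.6, SciPy 1.17.1 and Biopython 1.88 were used.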

Additional observations from a re-analysis of the deposited data

Results flagged for a closer look

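The 3D change of UGDH differed between the lines by 0.48 ± 0.12 on the log2 CPM scale (A549 minus MDA-MB-231). UGDH is a member chosen with these changes known, so this describes the fit and is no independent test. UGDH was higher in A549 3D than in 2D on CPM and lower on TPM, and its difference in MDA-MB-231 was -0.15 ± 0.0891, which did not pass on CPM. The 3D change of the UGT2B sum differed by 1.47 ± 0.42, with all 3 libraries in 3D above all 3 in 2D in both lines, a description for the same reason, and fell below the threshold without replicate 3 of MDA-MB-231 2D (1.14). Of the 51 tested pathway genes named by the rule above, the 3D change of 43 differed between the lines, against 56.1% of all genes tested. These genes were named for small p-values in 1 of the lines, so the count is not independent evidence of a difference.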

How the results depend on the processing

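UGDH in A549 reversed, from 0.33 on CPM to -0.23 on both log2(TPM + 1) and log2(TPM + 0.1). On log2(TPM + 1) the median of all genes moved to -0.38 in A549 and -0.25 in MDA-MB-231, and the share of calls that were higher in 3D went from 52.0% to 21.0% and from 49.4% to 25.3%. The number of members whose 3D change differed between the lines, 1 with edgeR, was 2 with DESeq2, 4 on log2(TPM + 1), 3 on log2(TPM + 0.1) and 3 on TPM without structural RNA, an alternative chosen after seeing the data. It was 1 to 2 with single libraries left out, and 2 without replicate 1 of A549 2D, replicate 3 of A549 3D or replicate 2 of MDA-MB-231 2D. Members called between the lines in 2D numbered 6, and 3 on TPM without structural RNA. The difference of the UGT2B sum between the changes ranged from 1.14 to 1.79 with single libraries left out and did not pass without replicate 3 of MDA-MB-231 2D. UGT1A1 and UGT2B15 in A549 did not pass with DESeq2, UGT1A1 at 3.67 ± 2.21 against 3.79 ± 0.69, SEs of different kinds. UGDH in MDA-MB-231 passed when its 6 libraries were fitted alone (-0.14). The causes were not tested. The UGT1A sum has no value in MDA-MB-231, where it is 0, and hence none for the difference between the lines' changes. Same-numbered libraries did not deviate together (correlations of -0.07 to 0.07), and with a replicate block 35 of 35 single differences stayed on their side of the threshold, while pathway genes called went from 84 to 82 in A549 and from 73 to 69 in MDA-MB-231, with the UGT2B difference at 1.47 ± 0.44. UGT2B4, with 1 to 9 counts per group, did not pass the filter on low counts, and no estimate is given for it.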
